A study of Mus musculus with 9 samples.

Results

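The genes described here are 10 components of the MHC class I presentation pathway and the immunoproteasome, followed over the differentiation of mouse beige adipocytes. They are the light chain B2m, the classical heavy chains H2-K1 and H2-D1, the peptide transporter subunits Tap1 and Tap2, the loading factor Tapbp, the immunoproteasome subunits Psmb8, Psmb9 and Psmb10, and the transcriptional activator Nlrc5. The members were taken by gene symbol from a table of 55359 genes. All 10 symbols were found, and all 10 were among the 14649 genes that passed the filter on low counts. None passed through 1 day alone: the lowest count of any of the 10 in any library was 11, for Nlrc5 at day 0. The group was chosen because its levels in these same libraries were known to be higher at day 8. Its differences between days are therefore given as descriptions, with their errors and without p-values.

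RNA was measured at day 0, day 4 and day 8, with 3 libraries on each day. The cells were adipocyte precursors (preadipocytes) from mouse inguinal white adipose tissue (iWAT), a subcutaneous depot whose precursors can form thermogenic beige adipocytes in culture. Day 0 cells had not been induced. Day 4 and day 8 cells had been given dexamethasone, IBMX, indomethacin, insulin, triiodothyronine (T3) and rosiglitazone for 2 days, followed by maintenance medium that lacked IBMX, indomethacin and dexamethasone. All libraries were stranded total RNA libraries made from the cleared supernatant of detergent lysates prepared with cycloheximide. No uninduced cells of day 4 or day 8 are among these samples, so time in culture and the inducing medium cannot be told apart. The mouse strain, which sets the alleles of the H2 genes, and the animals' sex and age are not given in the sources used here. Whether the 3 libraries of a day derive from separate cultures or animals is not in the labels; the errors and p-values below measure only the spread between these libraries, which may be technical.

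MHC class I molecules present short peptides from inside the cell to CD8 T cells. A heavy chain pairs with B2m in the endoplasmic reticulum, the Tap1/Tap2 transporter brings in peptides from the cytosol, and tapasin (Tapbp) holds the transporter and the empty heavy chain together until a peptide is bound. The peptides are cut mainly by the proteasome, whose catalytic subunits Psmb6, Psmb7 and Psmb5 can be replaced by Psmb9, Psmb10 and Psmb8 to form the immunoproteasome, and Nlrc5 is the activator known for driving class I genes at their promoters; interferons are the classical inducers of nearly the whole group.

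The 9 libraries held 26387408 to 31474490 counts in genes. Levels are given in CPM, counts per 1e6 counts of the library, after the library sizes were scaled by the trimmed mean of M-values (TMM), which sets the bulk of genes equal between libraries. Scaling by the plain total lowered the median log2 change of all tested genes to -0.33 at day 8 and -0.34 at day 4, both against day 0, where TMM gave 0.03 and -0.01. The first principal component carried 75.7% of the variance and placed day 4 replicate 2 at 13.7, between the other day 4 libraries at 84.6 and 69.5 and the day 0 libraries at -138 to -135. Summed adipocyte markers were 312 to 392 CPM at day 0, 21200 to 38500 CPM at day 4 and 28500 to 30100 CPM at day 8. Summed precursor markers were 1320 to 1430, 654 to 1620 and 429 to 552 CPM. Day 4 replicate 2 gave the 1620 CPM, of which Ly6a held 1132 CPM. Pdgfra and Pdgfrb averaged lower at day 4 than at day 0, whereas Ly6a, Cd34 and Dlk1 averaged higher. Of 14649 genes, edgeR's quasi-likelihood test at a Benjamini-Hochberg adjusted p under 0.05 called 63.4% changed at day 8 against day 0, 54.6% at day 4 against day 0 and 22.4% at day 8 against day 4. Of these calls, 52.9%, 52.4% and 52.0% were higher, against 37.5%, 35.3% and 51.0% with plain totals.

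The classical heavy chains share their promoter layout, and the region before their start sites is shown here because H2-K1, H2-D1 and the non-classical gene H2-Q4 were all higher at day 8. Windows from 250 bases before to 50 bases after the start were taken from RefSeq for 8 of the 10 genes, on build GRCm38.p6, whereas the counts were made on GRCm39. The 250 bases before the start are printed 5′ to 3′ along the gene, with capitals for a match on either strand to the interferon response motif (GAANNGAAA, also with a further A before the open positions), the κB motif by its consensus, the CCAAT box or the GAS motif (TTCNNNGAA). The windows lie at chr17:34000348-34000597 (minus strand) for H2-K1, chr17:35262844-35263093 for H2-D1, chr17:35379367-35379616 for H2-Q4, chr2:122147437-122147686 for B2m, chr17:34187306-34187555 for Tap1 and chr17:34197945-34198194 for Psmb8, all on the plus strand except H2-K1.
H2-K1: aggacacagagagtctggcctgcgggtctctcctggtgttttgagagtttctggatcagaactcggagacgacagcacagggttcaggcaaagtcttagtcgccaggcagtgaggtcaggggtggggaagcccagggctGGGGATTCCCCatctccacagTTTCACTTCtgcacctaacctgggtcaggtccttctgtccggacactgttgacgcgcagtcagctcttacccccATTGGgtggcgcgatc
H2-D1: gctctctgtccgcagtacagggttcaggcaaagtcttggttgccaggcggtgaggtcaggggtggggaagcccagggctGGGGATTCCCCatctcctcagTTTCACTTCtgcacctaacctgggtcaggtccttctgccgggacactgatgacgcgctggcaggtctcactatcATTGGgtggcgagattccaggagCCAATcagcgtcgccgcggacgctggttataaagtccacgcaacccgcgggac
H2-Q4: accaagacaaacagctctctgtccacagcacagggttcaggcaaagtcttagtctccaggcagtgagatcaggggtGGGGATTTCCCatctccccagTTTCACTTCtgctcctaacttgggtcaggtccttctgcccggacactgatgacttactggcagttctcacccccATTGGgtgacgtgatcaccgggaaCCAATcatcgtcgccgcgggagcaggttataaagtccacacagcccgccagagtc
B2m: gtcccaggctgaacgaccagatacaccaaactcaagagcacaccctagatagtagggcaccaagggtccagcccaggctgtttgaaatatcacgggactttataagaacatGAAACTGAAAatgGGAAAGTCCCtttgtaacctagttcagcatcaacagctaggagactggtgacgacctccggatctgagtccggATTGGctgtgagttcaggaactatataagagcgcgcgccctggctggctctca
Tap1: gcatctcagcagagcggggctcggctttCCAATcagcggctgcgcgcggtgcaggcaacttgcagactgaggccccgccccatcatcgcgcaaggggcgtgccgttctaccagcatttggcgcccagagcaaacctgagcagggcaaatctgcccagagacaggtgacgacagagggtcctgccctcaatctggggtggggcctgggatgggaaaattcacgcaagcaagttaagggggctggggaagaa
Psmb8: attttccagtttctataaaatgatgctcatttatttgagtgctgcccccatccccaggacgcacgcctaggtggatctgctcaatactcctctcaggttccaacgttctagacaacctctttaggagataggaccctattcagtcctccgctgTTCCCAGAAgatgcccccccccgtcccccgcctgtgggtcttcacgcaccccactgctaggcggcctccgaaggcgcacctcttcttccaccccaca

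In H2-K1, H2-D1 and H2-Q4 the κB match comes just before the interferon match, starting at positions -111, -171 and -174 from the start site. Aligned to each other, the H2-K1 and H2-D1 windows were identical at 206 of 228 positions, or 90.4%. The B2m window holds the interferon match first, at position -139, and the κB match at position -126. Over all 32851 RefSeq mouse windows of this length, 10.4% held the interferon motif, 4.5% the κB motif, 8.3% the GAS motif and 37.4% a CCAAT box, and 0.46% held both the interferon and the κB motif. Neither the interferon nor the κB motif was found in the windows of Tap1, Tapbp, Psmb8, Psmb9 and Psmb10 as spelled here, and Psmb8 held a GAS match at position -97. Tap1 and Psmb9 are read in opposite directions from start sites 226 bases apart, so 275 bases of their windows are the same DNA. A match is a string of letters and shows neither binding nor use. By the same annotation, Psmb9, Tap1, Psmb8 and Tap2 are consecutive genes on chromosome 17, H2-K1, H2-D1 and Tapbp lie elsewhere on chromosome 17, Psmb10 and Nlrc5 are on chromosome 8, and B2m is on chromosome 2.

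All 10 genes were higher in every day 8 library than in every day 0 library. Over all tested genes 37.4% met this condition, a share that gives no support here because the members were chosen from this contrast, and 35.3% were lower in every day 8 library. The median log2 change of the 10 genes was 1.28 at day 8 against day 0, beside 0.03 over all tested genes. Day 8 replicate 2 held the highest day 8 level of 9 of the 10 genes; without it the median log2 change was 1.13. Against day 0, 6 of the 10 were higher in every day 4 library (H2-K1, H2-D1, Tapbp, Psmb9, Psmb10 and Nlrc5; 32.8% of all tested genes) and Tap1 was lower in every one (33% of all tested genes). Between day 8 and day 4, 8 of the 10 were higher in every day 8 library, all except Tapbp and Nlrc5 (19.9% of all tested genes), and none was lower in every one (17.1%). The median log2 change was 0.45 at day 4 against day 0 and 0.97 at day 8 against day 4. The comparisons at day 4 and at day 8 against day 0 share the day 0 libraries.

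With plain totals in place of TMM, 7 of the 10 genes were still higher in every day 8 library than in every day 0 library (27.8% of all tested genes), none was lower in every one (46.7%), and Tap1, Tap2 and Tapbp overlapped between the days. At day 4 against day 0, 3 were then higher (H2-K1, H2-D1 and Nlrc5; 23.7% of all tested genes) and B2m and Tap1 were lower (45.8% of all tested genes). At day 8 against day 4, 8 were again higher (19.3%) and none lower (17%). With TMM and without day 4 replicate 2, 6 genes were higher (38.5%) and Tap1 and Psmb8 lower (40.1%) at day 4 against day 0, and 8 were higher (26.2%) and none lower (22.2%) at day 8 against day 4.

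**Figure D1:**
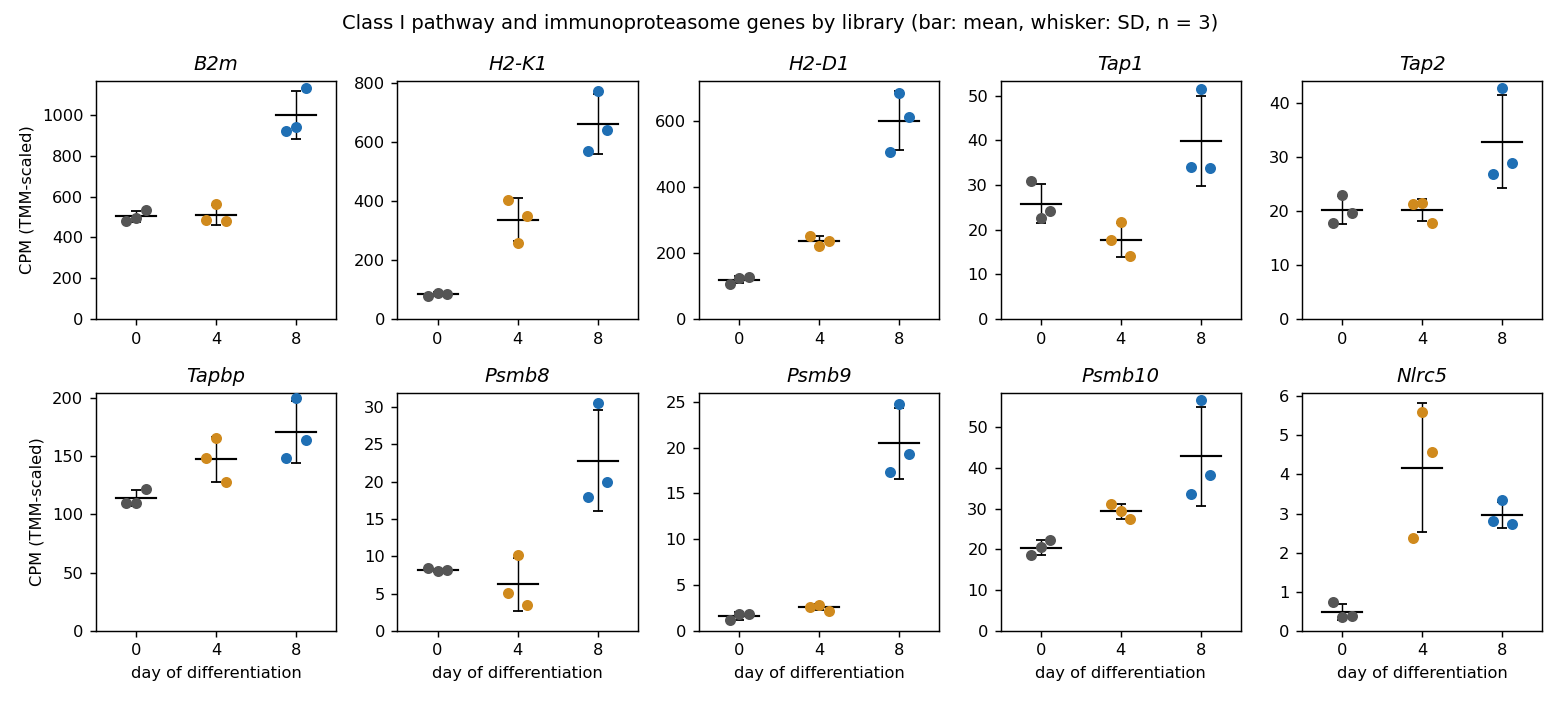
Level of each of the 10 genes in CPM (linear axes from 0, a separate scale per gene) in the 3 libraries of day 0, day 4 and day 8; points are libraries, bars the mean and whiskers the SD. Every day 8 point lies above every day 0 point in all 10 panels, Nlrc5 has its highest library at day 4, and Psmb9 stays under 3 CPM until day 8.

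B2m (ENSMUSG00000060802) encodes the light chain shared by the class I molecules and by those class I-like molecules that pair with it. Its level was 481, 494 and 533 CPM at day 0, 484, 566 and 482 CPM at day 4 and 920, 940 and 1132 CPM at day 8. The day 0 and day 4 libraries overlapped and the day 8 libraries stood above both. The mean was 998 ± 117 CPM at day 8 and 503 ± 26.9 CPM at day 0 (SD, n = 3 each), a log2 change of 0.99 (SE 0.15). At day 4 against day 0 the log2 change was 0.02 with TMM and -0.30 with plain totals, so its direction at day 4 depends on the scaling.

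H2-K1 (ENSMUSG00000061232) encodes one of the classical heavy chains, which carry the peptide groove. It had 77.3, 89.3 and 85.8 CPM at day 0, 404, 258 and 350.0 CPM at day 4 and 571, 772 and 640.3 CPM at day 8. The 3 days did not overlap, and the change was split between the intervals. Its log2 change was 2.97 (SE 0.20) at day 8 against day 0, 2.00 (SE 0.19) at day 4 against day 0 and 0.97 (SE 0.19) at day 8 against day 4.

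H2-D1 (ENSMUSG00000073411) encodes the other classical heavy chain. It had 108, 124 and 127 CPM at day 0, 251.1, 222 and 238 CPM at day 4 and 507, 687 and 612 CPM at day 8. Again no day overlapped another, and here the later interval held the larger part: the log2 change was 2.33 (SE 0.16) at day 8 against day 0, 0.98 (SE 0.15) at day 4 against day 0 and 1.34 (SE 0.15) at day 8 against day 4. Of the 50-base stretches of the H2-D1 transcript, 14.3% also occur in other genes, chiefly H2-Q1, H2-Q7 and H2-Q6, and 8.8% of those of H2-K1 do, chiefly in H2-D1. The split of reads between H2-K1, H2-D1 and the H2-Q genes is uncertain to that extent, since the sources used here do not say how the authors' counting placed reads that fit more than 1 of these genes.

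The heavy chains and B2m did not keep a fixed ratio. Per length of transcript, H2-K1 stood at 91.3% ± 3.29 of H2-D1 at day 0, 184% ± 29.8 at day 4 and 142.7% ± 5.999 at day 8 (SD, n = 3 each). Per merged exon length it stood at 61.7% ± 2.23, 124% ± 20.2 and 96.45% ± 4.06 on these days. H2-K1 and H2-D1 together amounted to 18.6% ± 1.12 of B2m at day 0, 54.8% ± 13.1 at day 4 and 60.4% ± 11.5 at day 8, per length of transcript. The day 4 and day 8 libraries overlapped in this ratio and stood above those of day 0.

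Tap1 (ENSMUSG00000037321) and Tap2 (ENSMUSG00000024339) form the transporter that carries peptides into the endoplasmic reticulum. Tap1 had 30.9, 22.6 and 24.1 CPM at day 0, 17.6, 21.7 and 14.1 CPM at day 4 and 34.1, 51.4 and 33.8 CPM at day 8. All day 4 libraries lay below all day 0 libraries, and all day 8 libraries above both. The log2 change of Tap1 was 0.62 (SE 0.22) at day 8 against day 0, -0.54 (SE 0.22) at day 4 against day 0 and 1.16 (SE 0.22) at day 8 against day 4.

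Tap2 had 17.8, 22.9 and 19.6 CPM at day 0, 21.2, 21.5 and 17.8 CPM at day 4 and 26.9, 42.7 and 28.9 CPM at day 8. Day 0 and day 4 overlapped and day 8 stood above them. Its log2 change was 0.71 (SE 0.19) at day 8 against day 0, and at day 4 against day 0 it was 0.00 with TMM and -0.32 with plain totals. Per length of transcript, Tap2 was 68.8% ± 18.9 of Tap1 at day 0, 98.9% ± 12.4 at day 4 and 70.7% ± 2.90 at day 8 (SD, n = 3 each), and the day 0 and day 4 libraries overlapped in this ratio.

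Tapbp (ENSMUSG00000024308) encodes tapasin, which bridges the transporter and the heavy chain. Its level was 109.9, 110.0 and 122 CPM at day 0, 149, 166 and 128 CPM at day 4 and 149, 200.1 and 164 CPM at day 8. Day 4 and day 8 overlapped, and both stood above day 0. The log2 change was 0.58 (SE 0.15) at day 8 against day 0 and 0.37 (SE 0.15) at day 4 against day 0.

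Psmb9 (ENSMUSG00000096727) encodes β1i, the immunoproteasome's replacement for Psmb6. It had 1.16, 1.88 and 1.83 CPM at day 0, 2.59, 2.87 and 2.21 CPM at day 4 and 17.4, 24.8 and 19.3 CPM at day 8, from raw counts of 43, 58 and 62 at day 0 and 501, 659 and 550 at day 8. The day 8 libraries stood far above the rest, and of the 10 genes Psmb9 had the widest difference from day 0. The log2 change was 3.66 (SE 0.25) at day 8 against day 0, 0.66 (SE 0.25) at day 4 against day 0 and 3.00 (SE 0.25) at day 8 against day 4. Its head-to-head neighbour Tap1 changed far less: per length, Psmb9 was 14.3% ± 5.37 of Tap1 at day 0, 31.7% ± 2.70 at day 4 and 114% ± 9.78 at day 8 (SD, n = 3 each).

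Psmb8 (ENSMUSG00000024338) encodes β5i, the replacement for Psmb5. It had 8.36, 7.97 and 8.11 CPM at day 0, 5.01, 10.2 and 3.43 CPM at day 4 and 18.0, 30.5 and 19.9 CPM at day 8. Day 4 replicate 2, the library that stood apart from its group, was above all day 0 libraries, and the other two were below them. The log2 change was 1.48 (SE 0.35) at day 8 against day 0. At day 4 against day 0 it was -0.38 (SE 0.35), and without day 4 replicate 2 it was -0.95.

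Psmb10 (ENSMUSG00000031897) encodes β2i, the replacement for Psmb7. Its level was 18.5, 20.5 and 22.3 CPM at day 0, 31.2, 29.4 and 27.5 CPM at day 4 and 33.7, 56.6 and 38.3 CPM at day 8. The 3 days did not overlap. The log2 change was 1.07 (SE 0.19) at day 8 against day 0 and 0.52 (SE 0.19) at day 4 against day 0.

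Nlrc5 (ENSMUSG00000074151) encodes the class I transactivator. It was scarce, with 0.73, 0.36 and 0.38 CPM at day 0, 2.38, 5.59 and 4.57 CPM at day 4 and 2.81, 3.35 and 2.73 CPM at day 8, from raw counts of 27, 11 and 13 at day 0, 57, 154 and 116 at day 4 and 81, 89 and 78 at day 8. Both later days stood above day 0 and overlapped each other. Its log2 change was 2.58 (SE 0.41) at day 8 against day 0, 3.07 (SE 0.41) at day 4 against day 0 and -0.50 (SE 0.36) at day 8 against day 4. Nlrc5 was thus the member with the widest day 4 difference, on a scale of a few CPM.

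**Figure D2:**
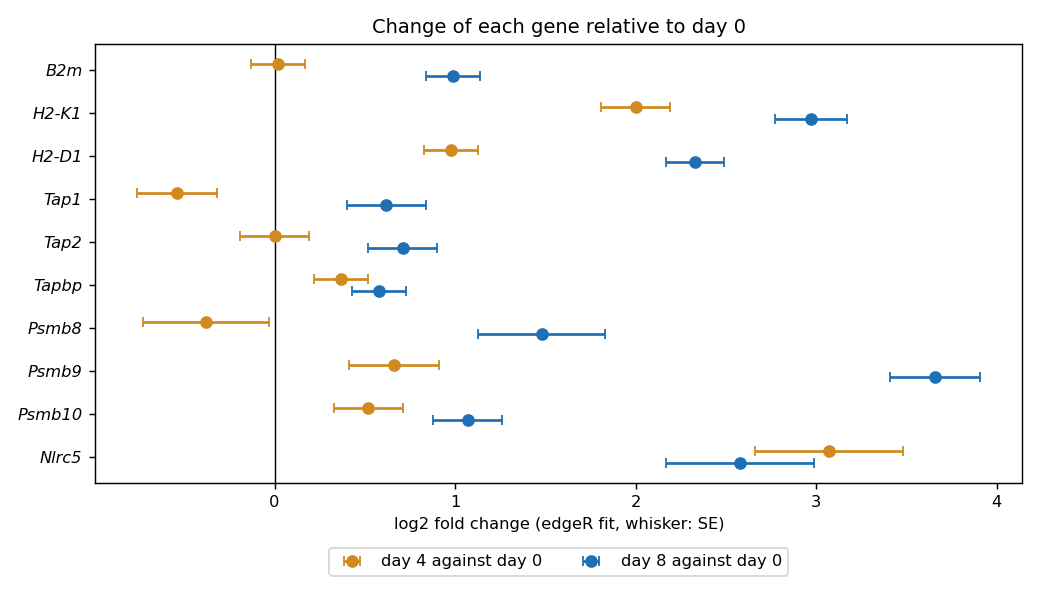
Log2 fold change of each gene against day 0 in the edgeR fit, for day 4 and for day 8, with whiskers of 1 SE. All 10 day 8 values are above 0, from 0.58 for Tapbp to 3.66 for Psmb9, while the day 4 values run from -0.54 for Tap1 to 3.07 for Nlrc5.

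Compared with each other per length of transcript, the members kept a wide order of levels at day 8, in CPM per kilobase (RPKM). B2m led with 1160 ± 136, followed by H2-K1 with 408 ± 63.1, H2-D1 with 286 ± 43.1, Tapbp with 59.0 ± 9.10 and Psmb10 with 32.7 ± 9.24 (SD, n = 3 each). Next came Psmb9 with 15.2 ± 2.86, Psmb8 with 14.01 ± 4.16 and Tap1 with 13.5 ± 3.42, whose ranges of mean ± SD overlapped. Within each day 8 library Psmb9 was above Tap1 (111.3%, 105.4% and 124.5% of it). Tap2 followed with 9.54 ± 2.51, below Tap1 in every day 8 library, and Nlrc5 was lowest with 0.39 ± 0.04. When merged exon length was used instead, H2-K1 with 225 ± 34.8 was slightly below H2-D1 with 233 ± 35.1. This held in every day 8 library (98.9%, 98.7% and 91.8% of H2-D1). Psmb9 with 5.60 ± 1.06 was below Tap2 with 8.68 ± 2.29, and it was below Tap1 in every day 8 library (76.25%, 72.2% and 85.3% of it). Tap2 was then above Tap1 in every day 8 library, so the order of these genes depends on the length used. At day 0 the same scale per transcript gave 1.201 ± 0.30 for Psmb9, 5.00 ± 0.12 for Psmb8 and 15.6 ± 1.45 for Psmb10, so Psmb9 was the lowest of the 3 immunoproteasome subunits before induction.

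The constitutive catalytic subunits, which were not used to choose the members, also increased. Psmb5, Psmb6 and Psmb7 all passed edgeR's quasi-likelihood test at day 8 against day 0. Psmb5 averaged 335 ± 72.5 CPM at day 8 and 91.9 ± 0.71 CPM at day 0 (log2 change 1.86, SE 0.19, adjusted p = 1.6e-05). Psmb6 averaged 250.7 ± 46.3 CPM at day 8 and 108 ± 1.75 CPM at day 0 (log2 change 1.21, SE 0.16, adjusted p = 8.13e-05). Psmb7 averaged 137 ± 2.65 CPM at day 8 and 66.2 ± 2.16 CPM at day 0 (log2 change 1.05, SE 0.11, adjusted p = 2.22e-05). These 3 genes were already higher at day 4 against day 0, with log2 changes of 1.39, 0.69 and 1.07. Of the 50-base stretches of the Psmb5 transcript, 57.1% also occur elsewhere, mostly in the gene model Gm3375, so its level is uncertain.

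Because both sets of subunits were higher at day 8, the transcript ratio of immunoproteasome to constitutive subunits was higher at day 8 for Psmb9 and not for the sum. Per length, Psmb9 stood at 0.88% ± 0.22 of Psmb6 at day 0, 0.87% ± 0.20 at day 4 and 4.83% ± 0.31 at day 8 (SD, n = 3 each). The day 8 libraries were well above the others, which overlapped. Psmb8 stood at 4.89% ± 0.11 of Psmb5 at day 0, 1.54% ± 1.15 at day 4 and 3.72% ± 0.29 at day 8. This ratio was lower in every day 8 library than in every day 0 library, although Psmb8 itself was higher. Psmb10 stood at 27.4% ± 3.31 of Psmb7 at day 0, 18.8% ± 2.22 at day 4 and 27.6% ± 7.30 at day 8, with day 8 and day 0 overlapping. The 3 immunoproteasome subunits together made up 7.39% ± 0.63 of the 3 constitutive ones at day 0, 4.71% ± 1.04 at day 4 and 7.62% ± 0.72 at day 8, and again day 8 and day 0 overlapped. The size of such ratios depends on the length used: per merged exon length, Psmb8 stood at 1.79% ± 0.14 of Psmb5 at day 8 and 2.36% ± 0.05 at day 0, and Psmb10 at 62.6% ± 16.6 of Psmb7 at day 8 and 62.2% ± 7.50 at day 0. Psmb9 then stood at 4.18% ± 0.27 of Psmb6 at day 8 and 0.77% ± 0.19 at day 0. The summed ratio was then 6.80% ± 0.57 at day 8 and 8.28% ± 0.73 at day 0 and lower in every day 8 library. These are ratios of transcripts, not of assembled proteasomes.

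**Figure D3:**
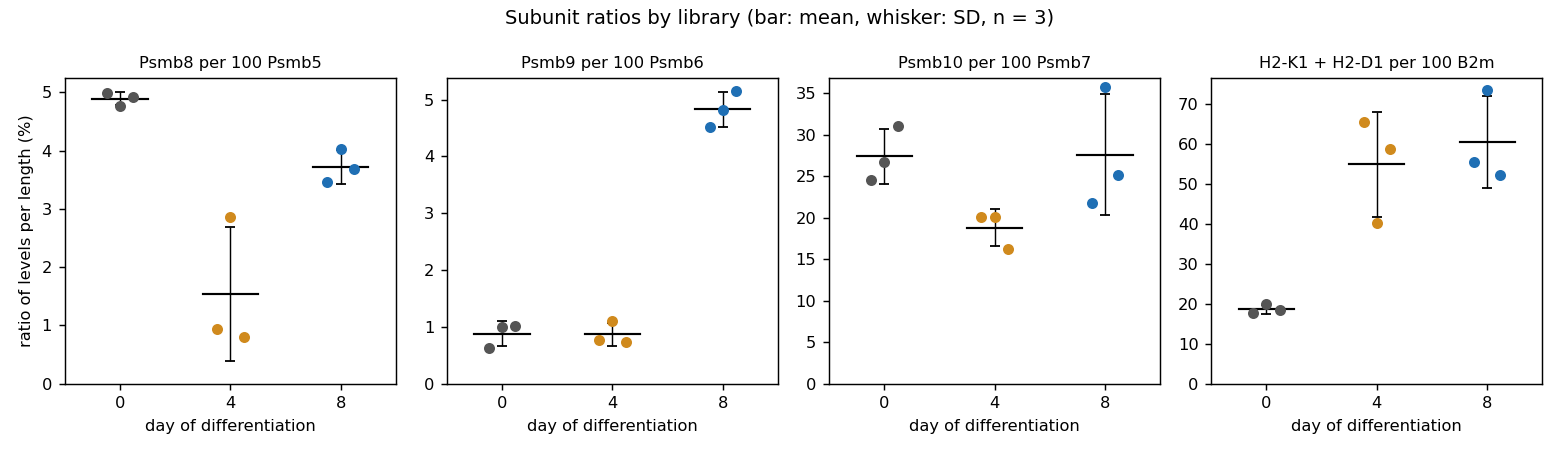
Ratios of levels per transcript length, in percent, in the 3 libraries of each day (points), with the mean (bar) and SD (whisker); each panel has its own axis from 0. Psmb9 over Psmb6 is near 5% only at day 8, Psmb8 over Psmb5 is lower at day 4 and day 8 than at day 0, Psmb10 over Psmb7 overlaps between day 8 and day 0, and the classical heavy chains over B2m are higher on both later days.

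The other subunits of the proteasome moved with the catalytic ones. Of 11 further 20S core subunits tested, 9 rose and none fell at day 8 against day 0 (median log2 change 0.77, beside 0.03 over all tested genes), and 10 rose at day 4 against day 0. Over all tested genes 33.5% rose and 29.9% fell at day 8 against day 0, and 28.6% and 26% at day 4 against day 0. With plain totals 8 and 6 of the 11 core subunits rose. DESeq2's Wald test called 10 higher at day 8 against day 0 and none lower, and at an unadjusted p under 0.05 edgeR likewise had 10 higher and none lower. The core subunits with the widest differences at day 8 against day 0 were Psma1 (log2 change 2.75, SE 0.26, adjusted p = 9.56e-06), Psma6 (1.29), Psmb3 (1.25) and Psma5 (1.06). All 9 activators and assembly factors tested rose at day 8 against day 0 (median 1.02), and 6 of 9 with plain totals. Psme2 and Psme1 encode the PA28 cap, which opens the 20S core. Psme2 averaged 280.1 ± 38.1 CPM at day 8 and 63.4 ± 1.68 CPM at day 0 (log2 change 2.14, SE 0.19, adjusted p = 6.23e-06), and Psme1 111 ± 16.8 CPM at day 8 and 45.7 ± 2.81 CPM at day 0 (log2 change 1.28, SE 0.15, adjusted p = 4.21e-05). At day 4 against day 0 their log2 changes were 1.90 and 1.15. The assembly chaperone Psmg1 (1.80) and the activator Psme4 (1.34) were the other two of the 4 with the widest differences at day 8 against day 0.

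The other class I heavy chains rose in larger number between day 4 and day 8 than between day 0 and day 4. The count table holds 17 such genes. Of these 10 were tested, and 9 rose and 1 fell at day 8 against day 0 (median log2 change 2.27). Over all tested genes 33.5% rose and 29.9% fell there. These shares were 28.6% and 26% at day 4 against day 0, and 11.7% and 10.8% at day 8 against day 4. At day 4 against day 0, 2 rose and 1 fell, with a median of -0.09, and at day 8 against day 4, 8 rose and none fell, with a median of 3.02 (8 and none also by DESeq2 and at an unadjusted p under 0.05). With plain totals 6 rose and 1 fell at day 8 against day 0, and 2 rose and 3 fell at day 4 against day 0. H2-Q5, H2-Q6 and H2-Q7 passed the count filter only through day 8, and H2-Q10 through day 4 and day 8, so their place in these counts is set in part by the filter. Without these 4 genes, 5 of 6 rose and 1 fell at day 8 against day 0, and none rose and 1 fell at day 4 against day 0; without the first 3, 5 of 7 rose and none fell at day 8 against day 4. H2-Q10, a class Ib gene known mainly from liver, had 2, 0 and 0 raw counts at day 0, 166, 43 and 79 at day 4 and 2513, 2908 and 1969 at day 8. Its day 8 level was 4480 times that of day 0, with a 95% counting interval of 1240 to 37000, on 2 counts at day 0; without day 0 replicate 1 it was at least 1900-fold higher, taking 3 counts over the group as the floor. H2-Q5 had 111 counts at day 8 and none at day 0, at least 44.9-fold higher (28.5 without day 0 replicate 1), and H2-Q6 had 68 counts at day 8 and 1 at day 0, a ratio of 82.5 with a counting interval of 14.3 to 3310 (49.7 without day 8 replicate 2, and at least 19.2 without day 0 replicate 2).

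H2-Q7 had 3, 2 and 6 raw counts at day 0, 5, 4 and 2 at day 4 and 163, 225 and 169 at day 8. Its level averaged 6.68 ± 1.56 CPM at day 8 and 0.11 ± 0.06 CPM at day 0 (SD, n = 3 each), and no p-value is given because it entered the test only through day 8. H2-Q4, H2-T22 and H2-T10 are given although they were picked after their values were seen. H2-Q4, whose promoter window is shown above, had 1.56, 2.01 and 2.13 CPM at day 0, 1.08, 2.76 and 1.77 CPM at day 4 and 18.8, 21.2 and 21.3 CPM at day 8. It differed at day 8 against day 0 (log2 change 3.43, SE 0.30, adjusted p = 6.15e-06) and day 4 overlapped day 0. H2-T22 averaged 158 ± 30.1 CPM at day 8 and 78.9 ± 2.94 CPM at day 0 (log2 change 1.00, SE 0.17, adjusted p = 0.000499), and H2-T10 averaged 2.16 ± 0.28 CPM at day 8 and 1.00 ± 0.28 CPM at day 0 (log2 change 1.10, SE 0.33, adjusted p = 0.014). The adjusted p of H2-T10 was 0.0687 with plain totals and 0.0671 and 0.0625 without day 0 replicate 1 and without day 0 replicate 2. H2-T23, which encodes Qa-1, averaged 83.7 ± 8.91 CPM at day 8 and 56.0 ± 4.76 CPM at day 0 (log2 change 0.58, SE 0.16, adjusted p = 0.00882, and 0.31 with plain totals). These genes and those of the paragraph before, without H2-Q5, share between 8.0% (H2-Q10) and 44.7% (H2-T22) of their 50-base stretches with other genes. Reads can therefore be split between them. The share of H2-Q5 was not measured, but 15.2% of the stretches of H2-Q7 also occur in H2-Q5. H2-T22 and H2-T10 share most with each other.

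**Figure D4:**
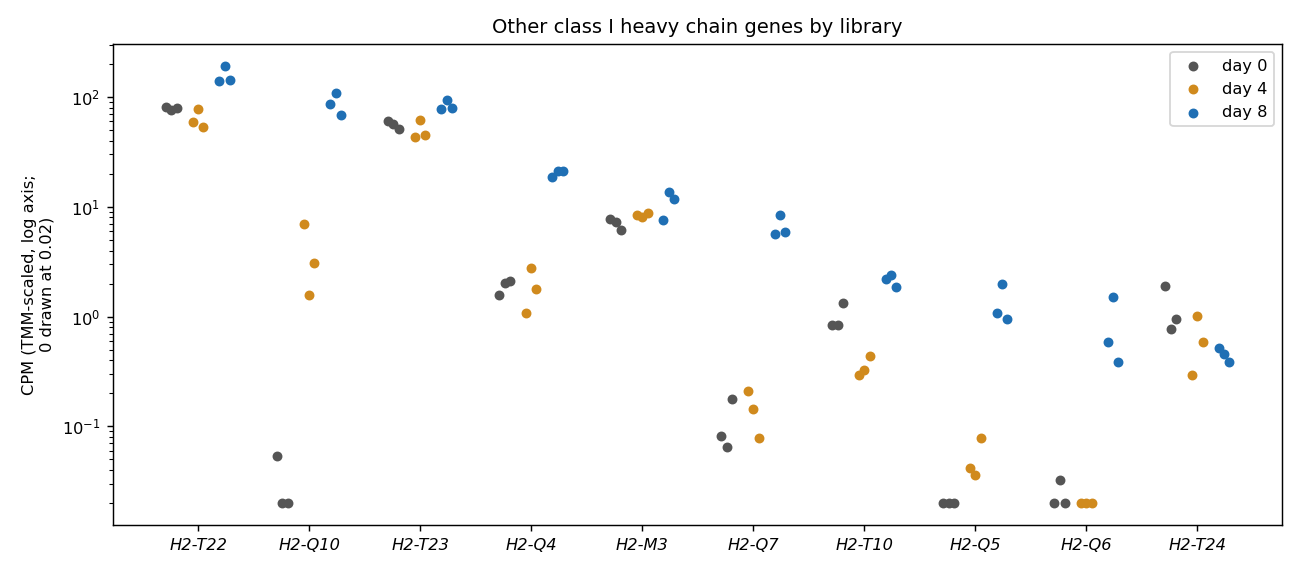
Levels in CPM on a log axis of the 10 tested class I heavy chain genes other than H2-K1 and H2-D1, in each library of day 0, day 4 and day 8; a level of 0 is drawn at 0.02. H2-Q10, H2-Q4, H2-Q7, H2-Q5, H2-Q6, H2-T22, H2-T23 and H2-T10 have day 8 libraries above all others. H2-M3 overlaps between day 8 and day 0, and H2-T24 has its day 8 libraries below those of day 0.

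Of 12 genes of peptide loading and trimming outside the group that were tested, 4 rose and 2 fell at day 8 against day 0 (median log2 change 0.29; 33.5% of all tested genes rose and 29.9% fell), whereas with plain totals 3 rose and 4 fell and the median was -0.08. At day 8 against day 4 none passed edgeR's test, beside 22.4% of all tested genes. At an unadjusted p under 0.05 in edgeR 1 was then higher and 2 lower, and DESeq2 called 2 lower. Bcap31, an endoplasmic reticulum export factor (log2 change 1.12, SE 0.15, adjusted p = 0.000116), and the cytosolic peptidases Blmh (0.93) and Lap3 (0.78) rose at day 8 against day 0. Pdia3, the disulfide isomerase ERp57 of the loading complex, fell to 275 ± 43.9 CPM at day 8, against 631 ± 37.6 CPM at day 0 (log2 change -1.20, SE 0.21, adjusted p = 0.000576). Calnexin (Canx), the chaperone of new heavy chains, had a log2 change of -0.52 (adjusted p = 0.0161), with adjusted p up to 0.0694 when a library was left out. Calreticulin (Calr) at -0.10 and the trimming peptidase Erap1 at -0.36 did not pass the test, with adjusted p of 0.64 and 0.219, and both passed with plain totals at -0.46 and -0.72.

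Of 16 tested factors known to act at class I promoters, 5 rose and 5 fell at day 8 against day 0 (median log2 change 0.09), near the shares of all tested genes (33.5% and 29.9%), and 2 rose and 5 fell with plain totals (median -0.27). At day 8 against day 4, 6 rose and 1 fell, beside 11.7% and 10.8% of all tested genes. Without Irf8, which had under 10 counts in every day 4 library, 5 of 15 rose and 1 fell. Relb, an NF-κB subunit, averaged 35.5 ± 7.88 CPM at day 8 and 12.2 ± 0.99 CPM at day 0 (log2 change 1.54, SE 0.18, adjusted p = 3.3e-05), and the RFX subunit Rfxank rose by 1.49 (SE 0.21, adjusted p = 0.000152). The RFX subunit Rfx5 fell by 0.82 (SE 0.19, adjusted p = 0.00358), the CCAAT-binding subunit Nfya fell by 1.14 (SE 0.14, adjusted p = 5.67e-05) and the NF-κB subunit Rel fell by 0.83 (SE 0.25, adjusted p = 0.0145). Irf1, an interferon-induced activator of class I genes, averaged 25.8 ± 7.71 CPM at day 8 and 16.2 ± 2.72 CPM at day 0 (log2 change 0.67, SE 0.23, adjusted p = 0.0227). That call for Irf1 was lost with plain totals (adjusted p = 0.25). It was also lost when replicate 1 or 2 of day 0 was left out (adjusted p = 0.0661 and 0.092) and when replicate 2 of day 8 was (0.104).

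Of 16 interferon signalling genes tested, 4 rose and 9 fell at day 8 against day 0 (median log2 change -0.61). Irf7, a factor that amplifies interferon responses, rose by 1.71 (SE 0.22, adjusted p = 6.56e-05) at day 8 against day 0. The feedback inhibitors Socs3 and Socs1 fell by 2.96 (SE 0.37, adjusted p = 6.32e-05) and 2.09 (SE 0.31, adjusted p = 0.00019), and Stat3 fell by 1.26 (SE 0.23, adjusted p = 0.000627). Of 21 interferon-stimulated genes tested, 7 rose and 3 fell at day 8 against day 0, and 3 rose and 13 fell at day 4 against day 0 (median log2 changes 0.46 and -1.62; with plain totals 5 rose and 4 fell at day 8 against day 0). Over all tested genes 33.5% rose and 29.9% fell at day 8 against day 0, and 28.6% rose and 26% fell at day 4 against day 0. At day 8 against day 4, 12 of the 21 rose and none fell (median 1.29), beside 11.7% and 10.8% of all tested genes. With plain totals 12 rose and none fell. By DESeq2 13 rose and none fell, and at an unadjusted p under 0.05 in edgeR 14 rose and none fell. Rsad2, Gbp5 and Cxcl10 had under 10 counts in every day 4 library, and without them 10 of 18 rose and none fell. By the same rule, 2 of 17 rose and 11 fell at day 4 against day 0. At day 8 against day 0, without Ubd, 6 of 20 rose and 3 fell. Rsad2, an antiviral gene, had log2 changes of 3.29 at day 8 against day 0 and -2.07 at day 4 against day 0; the adjusted p of this second difference was 0.0209, and 0.0861, 0.0597 and 0.0539 without day 0 replicate 1, day 4 replicate 1 and day 4 replicate 2.

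Over the 9 lists of pathway genes outside the 10 members, 86 of 101 genes in the table were tested; 50 rose and 18 fell at day 8 against day 0 (33.5% and 29.9% of all tested genes), 35 rose and 21 fell at day 4 against day 0 (28.6% and 26% of all tested genes), and 26 rose and 3 fell at day 8 against day 4 (11.7% and 10.8% of all tested genes). With plain totals the counts were 38 and 21 at day 8 against day 0, and 27 and 33 at day 4 against day 0. The lists include H2-Q5, H2-Q6, H2-Q7 and H2-Q10, which had under 10 counts in every day 0 library. They also include Irf8, which had under 10 counts in every day 4 library. Such genes passed the filter only through the other days, so these pooled counts are set in part by the filter.

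**Figure D5:**
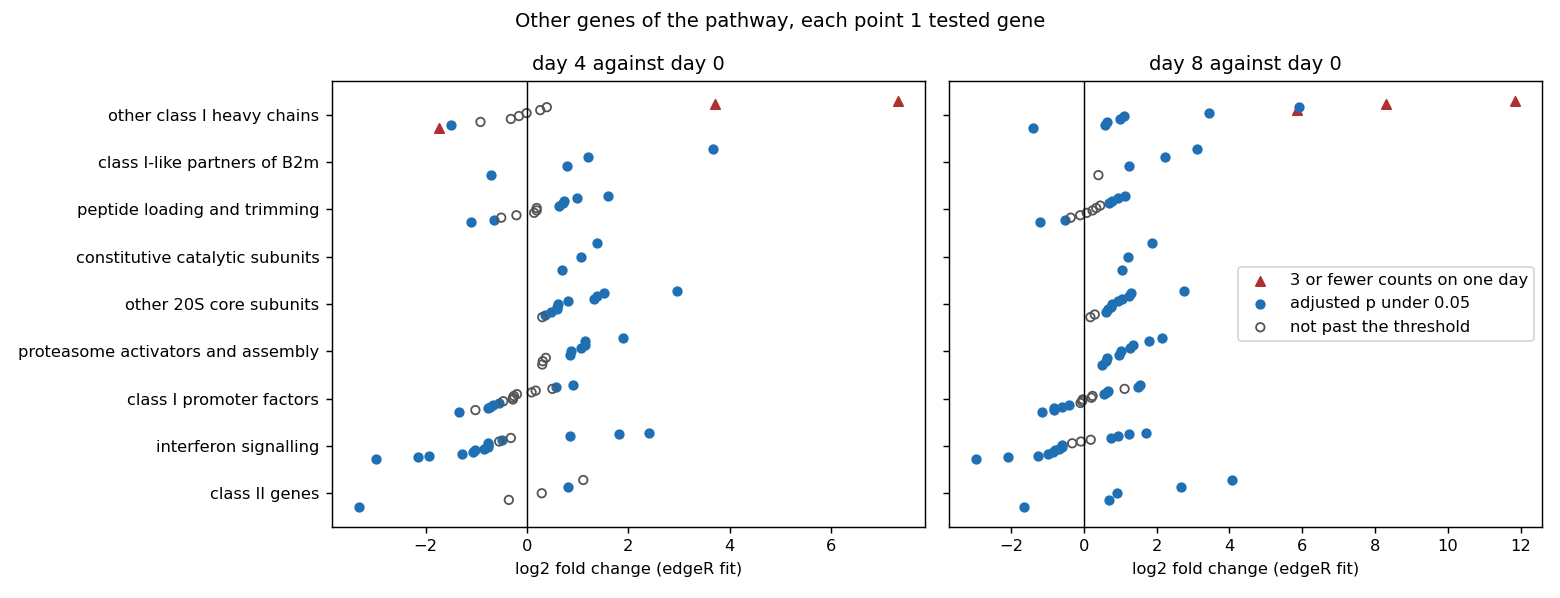
Log2 fold change of every tested gene of the 9 pathway lists at day 4 (left) and at day 8 (right), both against day 0; filled circles passed edgeR's test at an adjusted p under 0.05, open circles did not, and triangles mark genes with 3 or fewer counts on one of the days, whose fitted value is no measure of size. At day 8, with TMM scaling, all constitutive, core and activator genes lie above 0, whereas interferon signalling genes lie on both sides.

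Immune cells carry much class I and immunoproteasome RNA, and their markers were read in the same libraries. Of 10 markers of T, B and NK cells, 5 (among them Cd3d, Cd4, Ms4a1 and Ncr1) were at 0 in all 9 libraries. The summed level of the 10 was 2.10 to 2.75 CPM at day 0. It was 0.47 to 0.91 CPM at day 4 and 0.67 to 1.58 CPM at day 8, lower on both later days. Most of this sum was Lck, which averaged 2.24, 0.50 and 0.94 CPM on the 3 days. No other of the 10 averaged above 0.13 CPM on any day. The 9 macrophage markers, none at 0 throughout, summed to 41.0 to 93.9 CPM at day 0. They summed to 57.7 to 78.1 CPM at day 4 and 8.81 to 49.9 CPM at day 8. The 5 dendritic cell markers summed to 6.63 to 7.29, 5.01 to 8.96 and 7.77 to 9.08 CPM on these days. Most of that sum was Zbtb46, which averaged 6.40, 6.33 and 8.41 CPM. Clec9a and Xcr1 averaged 0.30 and 0.16 CPM at day 0, and 0 and 0.03 CPM at day 8. The 6 endothelial markers summed to 11.5 to 15.5, 2.55 to 10.6 and 1.81 to 2.73 CPM. Most of this was Tek, which averaged 10.6, 4.38 and 1.57 CPM. Of 7 macrophage markers and 1 dendritic cell marker tested, none passed edgeR's test at day 8 against day 0; at an unadjusted p under 0.05 none was higher and 3 macrophage markers were lower, and DESeq2 called 1 of them lower. At day 8 against day 4, 1 macrophage marker rose, Cd68 (log2 change 1.59, SE 0.44, adjusted p = 0.0278), and 2 fell, C1qa (-2.35, SE 0.58, adjusted p = 0.0174) and Mrc1 (-2.76, SE 0.84, adjusted p = 0.0392). Most of the macrophage sum was Lyz2, which averaged 49.2 CPM at day 0, 42.8 CPM at day 4 and 17.3 CPM at day 8. These markers, named after their values were seen, were mixed in direction, and the part of these cells in the class I levels was not tested. In bulk RNA, fewer cells of a type and less RNA per cell cannot be told apart.

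Among the genes whose course over the 9 libraries was most like the mean of the standardised log2 levels of the 10 members were Lncbate10 (Pearson r = 0.989), 9330175E14Rik (0.985), Mgmt (0.978) and Pcbp3 (0.977). The libraries form clusters by day, so these values largely restate which day is high. Mgmt, a DNA repair methyltransferase, averaged 26.5 ± 1.197 CPM at day 0, 35.8 ± 3.31 CPM at day 4 and 53.4 ± 10.1 CPM at day 8, and Lncbate10 was at 0 at day 0 and averaged 0.73 ± 0.35 CPM at day 8 (SD, n = 3 each).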

How the data were processed

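The deposited file holds raw counts per gene for the 9 libraries (3 each at day 0, day 4 and day 8). Per the submitters' processing notes, reads were handled with HISAT2 and featureCounts on GRCm39; versions, strand setting, annotation and the treatment of reads that fit several genes are not given in the sources used here. The labels name no batch. From the deposited counts, genes were kept with edgeR 4.0.16 (filterByExpr, count minimum 10 and total minimum 15; R 4.3.3), TMM-scaled, and fitted with the quasi-likelihood model over all 9 libraries with 6 residual degrees of freedom; p-values were Benjamini-Hochberg adjusted over all 14649 tested genes, with a threshold of 0.05. The common biological coefficient of variation was 22.7%, and the limit of 3 counts was 0.0809 to 0.125 CPM per library; limits and intervals cover counting error only. The procedure was tested on simulated counts. No libraries of a day were duplicates (chi-square per degree of freedom of their counts 16.7 to 250).

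The members and all gene lists were chosen with earlier results of these data known, so the members have no p-values. Named in the text are all members, up to 4 genes of each list past the threshold with the widest difference at day 8 against day 0, a fixed set (Psmb5, Psmb6, Psmb7, Psme1, Psme2, Calr, Canx, Pdia3, Erap1, Irf1, Rfx5 and H2-T23), and the 5 genes most like the members; some genes that these rules pick are not reported here. Levels between genes use the length of the longest protein-coding transcript (GENCODE M21). Tried as alternatives were DESeq2 1.42.0 (size factors and Wald test), plain totals, no filter, a replicate block, only the days compared, and each library left out; plain totals and day 4 replicate 2 left out for the counts of members, merged exon length, and list counts without genes under 10 counts in every library of one of the days compared, were added after seeing the data.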

Additional observations from a re-analysis of the deposited data

How the results depend on the processing

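The 10 members kept a positive log2 change at day 8 against day 0 under all alternatives run. Their median there, 1.28, became 0.90 with plain totals, and their median at day 4 against day 0, 0.45, became 0.12; with a library left out the medians ranged from 1.13 to 1.43 and from 0.39 to 0.52, and at day 8 against day 4 from 0.87 to 1.04. With a library left out, the genes changed numbered 8323 to 10111 (9290 with all libraries) at day 8 against day 0, 6613 to 9110 (7998) at day 4 against day 0 and 1894 to 4185 (3285) at day 8 against day 4, the lowest without day 4 replicate 3, with 2107 without day 8 replicate 1 and 2012 without day 8 replicate 2. Only the 2 days compared gave 1901. Of the other pathway genes, 26 were higher at day 8 against day 4, and 17 to 26 with a library left out, the lowest without day 8 replicate 2. Those lower at day 8 against day 4, 3 in all, were 6 with plain totals, 6 with DESeq2's Wald test and 2 to 9 with a library left out, the highest without day 4 replicate 2. Those lower at day 4 against day 0, 21 in all, were 33 with plain totals. The cause of these shifts was not tested.

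Replicate numbers are shared by the days, and the deviations of same-numbered libraries correlated between -0.126 and 0.273. Between day 0 and day 8 the same-numbered pairs correlated at 0.273, 0.138 and 0.086. Pairs of unlike number correlated at -0.18 to 0.037 between these days. The labels do not say what a number shares, so the main fit does not use the numbers. With a replicate block, 9368 genes changed between day 8 and day 0, 8070 between day 4 and day 0 and 3105 between day 8 and day 4. Among the named genes that were checked, the block moved none across the threshold. The calls of the macrophage markers Cd68, C1qa and Mrc1 at day 8 against day 4 were not checked under the alternatives.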

Other observations

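MHC class II molecules present peptides to CD4 T cells and are usually associated with professional presenting cells. The count table holds 9 of their genes, of which 5 were tested. At day 8 against day 0, 4 rose and 1 fell (median log2 change 0.91), beside 33.5% and 29.9% of all tested genes. With plain totals 3 of the 5 rose and 1 fell. H2-Ab1 had 2.16, 3.43 and 2.37 CPM at day 0, 10.5, 1.27 and 5.395 CPM at day 4 and 43.9, 50.8 and 39.8 CPM at day 8. The day 8 libraries stood above all others, with a log2 change of 4.08 (SE 0.57, adjusted p = 0.000122, edgeR) at day 8 against day 0 and 2.98 (SE 0.53, adjusted p = 0.00443) at day 8 against day 4. H2-Aa, which encodes the partner chain of H2-Ab1 and is named after its values were seen, was not tested: it had 1 count in all 9 libraries, at day 4, and 0 at day 8. H2-Eb1 averaged 5.79 ± 1.66 CPM at day 8 and 0.90 ± 0.33 CPM at day 0 (SD, n = 3 each; log2 change 2.68, SE 0.43, adjusted p = 0.000323 in edgeR). H2-DMa, which loads class II peptides, rose by 0.91 (SE 0.23, adjusted p = 0.00485). Cd74, the invariant chain that accompanies new class II molecules, went the other way, with 0.68 ± 0.19 CPM at day 8 and 2.13 ± 0.34 CPM at day 0 (log2 change -1.64, SE 0.54, adjusted p = 0.022); its adjusted p was 0.0537 to 0.0772 in 4 of the fits that left out a library (day 0 replicate 2 or 3, day 8 replicate 1 or 3). The part of professional presenting cells in the H2-Ab1 level was not tested.

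The class I-like molecules that pair with B2m had their own courses. Of 4 tested, 3 rose at day 8 against day 0, beside 33.5% of all tested genes. Cd1d1, which presents lipids to NKT cells, had 9.99 ± 1.40 CPM at day 0, 127 ± 29.9 CPM at day 4 and 86.4 ± 21.97 CPM at day 8 (log2 change 3.11, SE 0.24, adjusted p = 2.87e-06 at day 8 against day 0, n = 3 each, edgeR). At day 4 against day 0 its log2 change was 3.67 (SE 0.24, adjusted p = 1.09e-06). Hfe, a regulator of iron uptake, averaged 82.8 ± 4.45 CPM at day 8 and 17.5 ± 1.01 CPM at day 0 (log2 change 2.24, SE 0.13, adjusted p = 4.72e-07), and Fcgrt, the neonatal Fc receptor, 397 ± 100.8 CPM at day 8 and 167 ± 11.2 CPM at day 0 (log2 change 1.25, SE 0.19, adjusted p = 0.000194).

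Among the interferon-stimulated genes with the widest differences at day 8 against day 0, day 4 did not share one direction. Ubd, a ubiquitin-like modifier, had no counts at day 0. Taking 3 counts over the day 0 libraries as the floor, Ubd was at least 100-fold higher at day 4 and at least 102-fold higher at day 8. Without day 0 replicate 1 these bounds were 63.6 at day 4 and 64.8 at day 8, and without day 4 replicate 2 the day 4 bound was 66.0. Cxcl9 rose by 2.43 at day 4 and by 2.23 at day 8 against day 0 (adjusted p = 0.000372 and 0.000467, edgeR), from raw counts of 13, 9 and 10 at day 0. Cxcl10, by contrast, had a log2 change of -2.74 at day 4 and 2.16 at day 8 against day 0 (adjusted p = 0.00512 and 0.00261, edgeR). Its raw counts were 21, 19 and 15 at day 0, 0, 3 and 3 at day 4 and 68, 89 and 46 at day 8. The size of its day 4 difference is therefore uncertain.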
